A study of Sus scrofa with 11 samples.

Results

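The fibrillar collagen genes are the 9 genes COL1A1, COL1A2, COL3A1, COL5A1, COL5A2, COL5A3, COL11A1, COL24A1 and COL27A1, chosen by symbol from the 30376 genes of the expression table of porcine wounds. All 9 were among the 13956 genes with values that reached 0.5 FPKM, a read count scaled by gene length and library, in 4 or more libraries. The samples were full-thickness dorsal skin wounds of Yucatan minipigs on day 10 after wounding. The diabetic group was 7 wounds of 1 minipig made diabetic with streptozotocin, a toxin of insulin-producing beta cells, and the non-diabetic group was 4 wounds of 1 minipig without it. No genetic change was stated for either animal, and the labels give neither age nor weight. Because each group was 1 animal, p-values measure only how wounds within an animal vary, and diabetes and the animal cannot be told apart. The library names begin with L or R, a letter whose meaning the labels do not state. Diabetic replicates 1 to 3 and non-diabetic replicates 1 and 2 were L-named, and diabetic replicates 4 to 7 and non-diabetic replicates 3 and 4 were R-named.

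Fibrillar collagens are the rope-like proteins that give skin its tensile strength. Their chains fold in the endoplasmic reticulum into triple helices, are secreted as procollagens, lose their end propeptides and then assemble side by side into cross-linked fibrils. Type I collagen, made of COL1A1 and COL1A2 chains, and type III collagen, made of COL3A1 chains, form most of the dermis, and type III is laid down early in granulation tissue. Type V and type XI chains sit within the fibrils and limit their width, while COL24A1 and COL27A1 encode fibrillar chains that were described later. Fibroblasts and myofibroblasts make most of this collagen in a healing wound.

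On Sscrofa11.1 COL1A1 spans chr12:26379087-26397180 on the minus strand with 51 exons, COL1A2 spans chr9:74174484-74210407 on the plus strand with 53, and COL3A1 spans chr15:93556914-93595678 on the plus strand with 51. The 250 bases before the annotated start of COL1A1 and COL1A2 are printed, 5′ to 3′ on the strand of the gene, because these genes encode the paired chains of type I collagen and their levels followed each other across wounds. Capitals mark the motifs CCAAT and TATAA, searched with GGGCGG on both strands.
COL1A1, chr12:26397181-26397430, minus strand: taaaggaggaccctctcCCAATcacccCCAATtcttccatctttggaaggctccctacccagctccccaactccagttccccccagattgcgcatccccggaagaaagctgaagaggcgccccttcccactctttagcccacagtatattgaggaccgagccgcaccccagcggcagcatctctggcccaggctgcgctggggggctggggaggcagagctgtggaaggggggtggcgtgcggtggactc
COL1A2, chr9:74174234-74174483, plus strand: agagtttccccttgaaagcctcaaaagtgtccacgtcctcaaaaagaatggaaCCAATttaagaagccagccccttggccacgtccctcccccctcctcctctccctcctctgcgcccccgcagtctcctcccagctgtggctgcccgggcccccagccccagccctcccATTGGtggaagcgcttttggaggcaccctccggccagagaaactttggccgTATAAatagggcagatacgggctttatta
Counted back from the annotated start, COL1A1 had CCAAT at -233 to -229 and at -223 to -219. COL1A2 had CCAAT at -197 to -193 on its own strand and at -80 to -76 on the opposite strand, and TATAA at -29 to -25. GGGCGG was in neither window. GC content was 62.8% and 58.8% in these windows. Of the 20665 protein-coding genes with a window of the same length, 32.0% held CCAAT, 18.6% TATAA and 44.4% GGGCGG. These matches are descriptions of the letters and not of binding.

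The other members lie on 4 chromosomes. COL5A1 spans chr1:273934219-274083264 and COL27A1 spans chr1:254768576-254924893, both on the plus strand. COL5A3 spans chr2:68828197-68869914 on the minus strand. COL11A1 spans chr4:115638381-115841679 and COL24A1 spans chr4:129911760-130243177, both on the plus strand. COL5A2 spans chr15:93611856-93981131 on the minus strand, and its 3′ end faces that of COL3A1 across 16.2 kb. COL5A2 overlaps WDR75 and 2 uncharacterised genes, and COL11A1 overlaps 3 uncharacterised genes. The libraries kept strand, but the strand setting of the read counting was not given in the sources used here, so reads of overlapping antisense genes are uncertain.

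Libraries held 28314785 to 40168372 reads on genes in diabetic wounds and 32961018 to 36872400 in non-diabetic wounds. Diabetic replicate 4 and non-diabetic replicate 1 stood apart on the first principal component, which held 44.5% of the variance. Their summed keratinocyte markers (12 of 15 listed genes found) were 54.5 and 306 FPKM, while the other 9 wounds had 1703 to 6618 FPKM. Diabetic replicate 3 had 1673 FPKM over 7 skeletal muscle markers, and no other wound exceeded 0.215 FPKM. Fibroblast surface and identity markers (7 of 7 found) summed to 368 to 714 FPKM in diabetic and 515 to 883 FPKM in non-diabetic wounds, with none of the 7 at 0 in every wound.

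The fibrillar collagen genes were among the main messages of these wounds. Together the 9 genes took 12.5%, 11.04% and 18.4% of all reads in the L-named diabetic wounds and 23.4%, 23.1%, 22.4% and 23.9% in the R-named ones. In non-diabetic wounds they took 28.3% and 21.8% in the L-named and 18.6% and 18.4% in the R-named wounds. COL1A1, COL1A2 and COL3A1 made up nearly all of this share, as the plot of read share shows. The 95% Wilson intervals of these shares, which cover counting error only, were at most 0.0311 percentage points wide. In bulk tissue, fewer collagen-making cells and less collagen RNA per cell cannot be told apart.

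**Figure D1:**
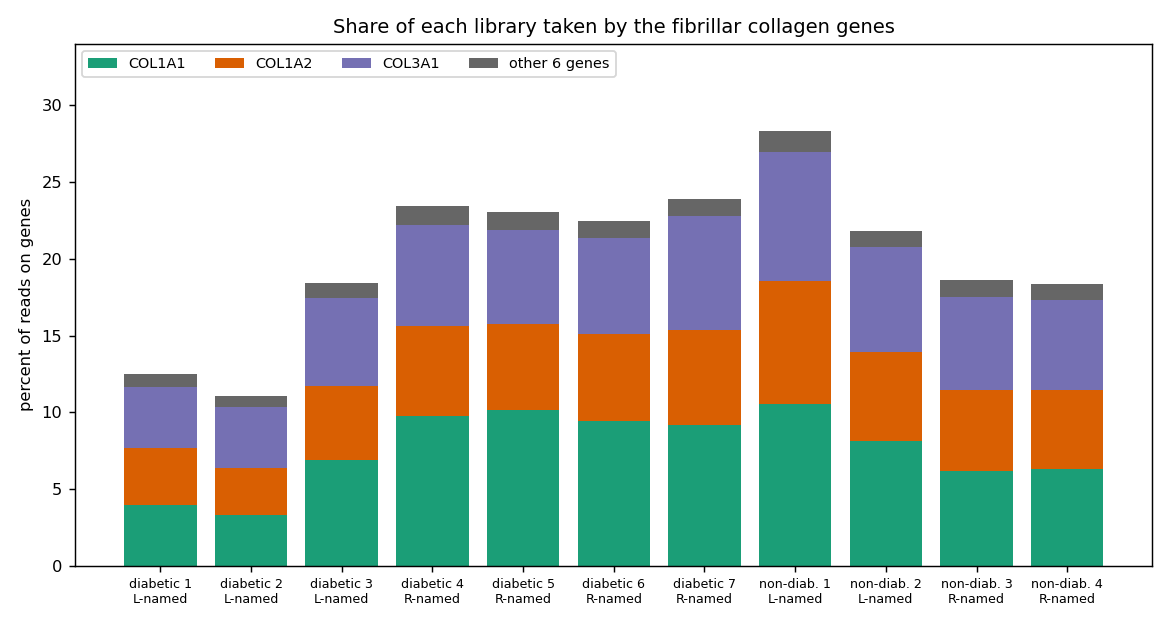
Percent of reads on genes taken by COL1A1, COL1A2, COL3A1 and the other 6 fibrillar collagen genes, as stacked bars, in each of the 11 wounds named by group, replicate and letter. The bars of diabetic replicates 1 and 2 are the lowest, at 12.5% and 11.04%, and that of non-diabetic replicate 1 is the highest, at 28.3%.

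FPKM is set per gene length, so the levels of the 9 genes can be ordered. COL3A1 was highest with a mean of 13413 ± 3989 FPKM (SD, n = 11 wounds), followed by COL1A1 at 13163 ± 5293 and COL1A2 at 11090 ± 3640. These 3 did not separate: COL3A1 exceeded COL1A1 in 8 of 11 wounds, and COL1A1 exceeded COL1A2 in 8 of 11. COL5A2 (820 ± 151 FPKM) and COL5A1 (794 ± 271 FPKM) formed the next level, and COL5A2 was above COL5A1 in 6 of 11 wounds. COL1A2 lay above COL5A2 in all 11 wounds, by 9.37 to 16.6 times. COL11A1 (86.9 ± 43.1 FPKM), COL5A3 (28.8 ± 4.93 FPKM), COL27A1 (20.5 ± 4.59 FPKM) and COL24A1 (3.68 ± 1.21 FPKM) followed, each above the next in all 11 wounds. The remaining fibrillar chains, COL2A1 and COL11A2 of cartilage, did not pass the filter, with at most 0.0895 and 0.221 FPKM.

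The members differed in how much they varied between wounds. The coefficient of variation over the 11 wounds was 49.6% for COL11A1, 40.2% for COL1A1, 34.1% for COL5A1, 32.8% for COL1A2 and COL24A1, and 29.7% for COL3A1. It was 22.4% for COL27A1, 18.5% for COL5A2 and 17.1% for COL5A3. Of the abundant chains, COL1A1 had the widest range, 4.36 times from lowest to highest wound, and COL5A2 the narrowest, 2.08 times.

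The main question was how diabetic wounds compared with non-diabetic wounds, and none of the 9 genes passed the test. Calls came from limma on log2(FPKM + 0.5), with Benjamini-Hochberg adjustment over all 13956 genes, and needed both an adjusted p below 0.05 and a log2 difference beyond 0.5 in size. That rule called 0 of the 9 members, beside 3.00% of all genes (419, of which 188 were higher and 231 lower in diabetic wounds). At an unadjusted p under 0.05 with the same size limit it took 1 member, COL11A1, beside 7.13% of all genes. In 8 of 9 members the mean was lower in diabetic wounds, with a median log2 difference of -0.20, while the median over all genes tested was 0.01. The ranges of the groups overlapped for all 9 members, beside 5.65% of all genes whose groups did not overlap.

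COL1A1 reached 4615 FPKM in the lowest diabetic wound, 16597 in the median and 19026 in the highest. Non-diabetic replicates 1 to 4 had 20109, 13914, 9548 and 9738 FPKM of COL1A1. The non-diabetic values thus lay inside or just above the diabetic range. The log2 difference for COL1A1, diabetic minus non-diabetic, was -0.13 with a 95% interval of -1.06 to 0.79 (adjusted p = 0.906 by limma, exact permutation p = 0.794, two-sided). As a fold this interval ran from 0.481 to 1.73.

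COL1A2, the partner chain in type I collagen, had 5014, 11947 and 13653 FPKM in the lowest, median and highest diabetic wound. The non-diabetic replicates had 18448, 12020, 9845 and 9560 FPKM of COL1A2. The log2 difference was -0.31 (95% interval -0.97 to 0.36, limma adjusted p = 0.653). COL3A1, the chain of type III collagen, had 7095, 14150 and 17460 FPKM as the lowest, median and highest diabetic value, and the non-diabetic replicates had 20706, 14982, 11967 and 11593 FPKM. Its log2 difference was -0.26 (95% interval -0.88 to 0.35, limma adjusted p = 0.674). Both genes had their highest value in non-diabetic replicate 1 and their lowest in diabetic replicate 2.

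Among the chains that set fibril width, COL5A1 had a log2 difference of -0.15 (95% interval -0.91 to 0.61) and COL5A2 one of -0.20 (95% interval -0.56 to 0.16). COL5A3, a less abundant type V chain, was the only member with a higher mean in diabetic wounds, at a log2 difference of 0.03 (95% interval -0.32 to 0.39). This sign turned with TPM scaling (-0.040) and quantile normalization (-0.067). COL27A1 had -0.12 (95% interval -0.55 to 0.31). The limma adjusted p was 0.867 for COL5A1, 0.943 for COL5A3 and 0.804 for COL27A1, and COL5A2 had an exact permutation p of 0.276.

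COL11A1, a type XI chain, showed the largest difference of the 9. Diabetic replicates 1 to 7 had 50.6, 42.3, 67.0, 110, 99.1, 72.9 and 40.1 FPKM, and non-diabetic replicates 1 to 4 had 194, 94.4, 83.8 and 102 FPKM. Diabetic replicates 4 and 5 lay within the non-diabetic range and the other 5 lay below it. The log2 difference was -0.79 ± 0.32 (SE, 95% interval -1.48 to -0.10), with an unadjusted p of 0.0282, an adjusted p of 0.204 in limma and an exact permutation p of 0.0515, so it did not pass the test. Without non-diabetic replicate 1, a wound that stood apart, the log2 difference was -0.53 (limma adjusted p = 0.445).
COL24A1 came next with a log2 difference of -0.51 ± 0.23 (SE, limma adjusted p = 0.278, exact permutation p = 0.0848). It had 1.57, 3.48 and 4.59 FPKM in the lowest, median and highest diabetic wound, and 5.05, 5.03, 5.20 and 3.07 FPKM in non-diabetic replicates 1 to 4. Only non-diabetic replicate 4 fell inside the diabetic range.

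The comparison of groups changed with the letter of the library name. In L-named wounds (3 diabetic, 2 non-diabetic) all 9 members had a lower mean in the diabetic wounds, with a median log2 difference of -1.07, and 8 of 9 did not overlap, beside 19.8% of all genes that were lower without overlap. In R-named wounds (4 and 2) 7 of 9 had a higher mean in the diabetic wounds, with a median of 0.31, and 5 of 9 were higher without overlap, beside 23.1% of all genes. COL1A1 showed both sides, with -1.31 ± 0.34 (SE) in L-named and 0.85 ± 0.32 in R-named wounds.
In a fit with 4 means, 1 for each group and letter, COL1A2 (-1.14, adjusted p = 0.0499) and COL24A1 (-1.07, adjusted p = 0.0361) were called lower in L-named diabetic wounds, beside 2.42% of all genes called lower. None of the 9 was called in R-named wounds, beside 6.85% of all genes called in either direction. These calls moved with the fit: with L-named wounds alone 0 members were called, and with R-named wounds alone COL1A1 (adjusted p = 0.0179) and COL5A1 (adjusted p = 0.0221) were called. Within one letter the exact permutation test cannot go below 0.1 for L-named and 0.0667 for R-named wounds.

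**Figure D2:**
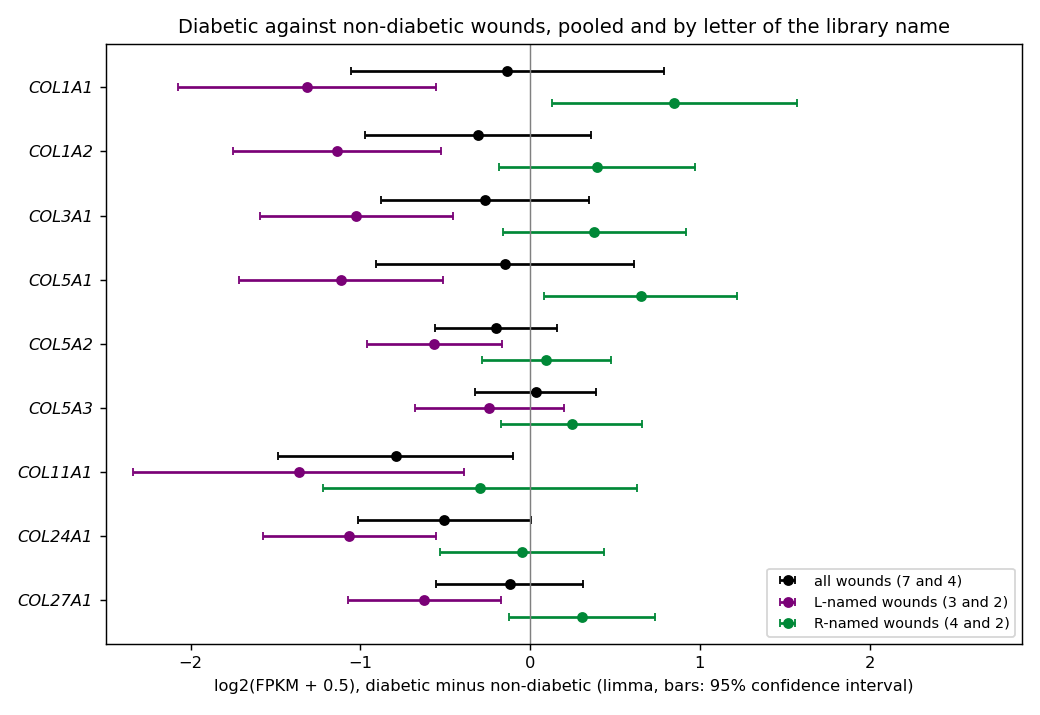
Log2 difference, diabetic minus non-diabetic, for each of the 9 genes on the horizontal axis, from limma on log2(FPKM + 0.5), with bars for the 95% confidence interval. Black marks all wounds, purple the L-named and green the R-named wounds, and for COL1A1 they lie at -0.13, -1.31 and 0.85.

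L-named and R-named wounds were then compared directly. With group as a term, limma called 0 genes (0.00%) and 0 of the 9 members. At an unadjusted p under 0.05 and a log2 difference beyond 0.5 in size it took 60 genes (0.430%). All 9 members had a negative log2 difference, L-named minus R-named, from -0.57 for COL1A1 to -0.12 for COL11A1. Exact permutation p within groups ranged from 0.129 to 0.729. This average joined effects of opposite sign in the groups.
In diabetic wounds COL1A1 had 5747, 4615 and 11506 FPKM in the 3 L-named wounds and 17294, 19026, 16597 and 16700 FPKM in the 4 R-named wounds. Every L-named value was below every R-named value. The log2 difference was -1.37 ± 0.28 (SE), a fold of 0.387, with an adjusted p of 0.0453 in limma. In non-diabetic wounds the order was the opposite, with 20109 and 13914 FPKM in L-named and 9548 and 9738 FPKM in R-named wounds, a log2 difference of 0.79 ± 0.37 (SE) that was not called (adjusted p = 0.528).

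COL5A1, the type V chain found in most fibrils, followed the same course. It had 387, 338 and 701 FPKM in L-named and 972, 1094, 950 and 1034 FPKM in R-named diabetic wounds, a log2 difference of -1.16 ± 0.22 (SE, limma adjusted p = 0.0432). In non-diabetic wounds it had 1101 and 867 FPKM in L-named and 680 and 610 FPKM in R-named wounds. COL1A2 (-0.91, adjusted p = 0.0513), COL3A1 (-0.82, adjusted p = 0.0532) and COL24A1 (-0.72, adjusted p = 0.0561) did not pass the threshold in diabetic wounds.
The other chains had smaller differences. COL24A1 had 2.52, 1.57 and 2.47 FPKM in L-named and 4.59, 3.48, 3.65 and 3.83 FPKM in R-named diabetic wounds, so the sets did not overlap. COL27A1 had 14.04, 14.6 and 18.5 FPKM against 23.8, 23.0, 18.6 and 26.9 FPKM, and its sets touched without overlap between diabetic replicates 3 and 6. COL5A2 had 656, 535 and 748 FPKM against 923, 955, 789 and 852 FPKM. The sets of COL5A3 overlapped, since L-named diabetic replicate 3 (31.0 FPKM) lay above R-named diabetic replicate 5 (29.1 FPKM). Those of COL11A1 overlapped because R-named diabetic replicate 7 had the lowest value of all wounds, 40.1 FPKM. The log2 differences of COL27A1, COL5A2, COL5A3 and COL11A1 ranged from -0.54 for COL27A1 to -0.43 for COL5A3 (limma adjusted p from 0.0797 to 0.369).
COL1A1 and COL5A1 were thus the 2 of 9 members called lower in L-named diabetic wounds, beside 1.98% of all genes called lower there (3.77% in either direction). These calls came from the fit with 4 means, and a fit of the diabetic wounds alone called 7 genes and 0 members. In exact permutation tests 6 of 9 members reached 0.0286, the smallest p that 35 arrangements give, beside 9.80% of all genes that reached it with a negative sign. The limma calls rested on the set of wounds here too. Without diabetic replicate 3, 8 members were called, beside 2399 of all 13956 genes, and without any one of the other 10 wounds 0 members were called. Without overlap, 7 of 9 members were lower, all but COL5A3 and COL11A1, beside 12.3% of all genes. In non-diabetic wounds all 9 had a higher mean in L-named wounds and 5 of 9 (COL1A1, COL1A2, COL3A1, COL5A1 and COL27A1) did not overlap, beside 25.2% of all genes. No gene (0.00%) was called there by limma (733 genes, 5.25%, at an unadjusted p under 0.05 and a log2 difference beyond 0.5 in size). The same 5 members were lower in L-named diabetic and higher in L-named non-diabetic wounds without overlap in either group, beside 8.22% of all genes.

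**Figure D3:**
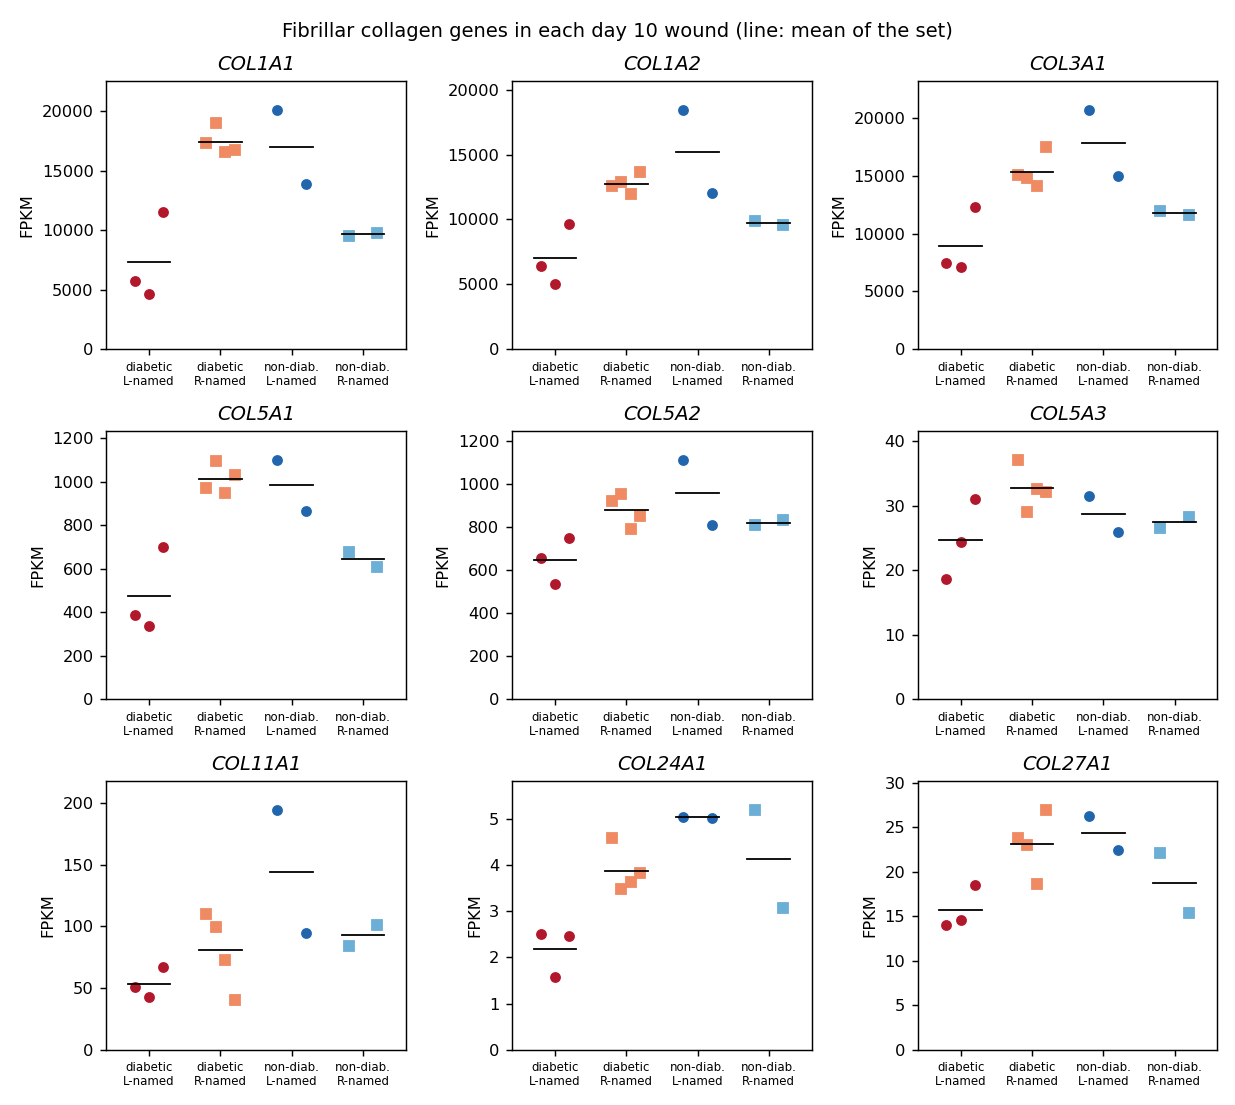
FPKM of each fibrillar collagen gene in each wound, in 9 panels with linear axes from 0; circles are L-named and squares R-named wounds, red for diabetic and blue for non-diabetic, and lines are the means of each set. For COL1A1 the 3 L-named diabetic wounds (4615 to 11506 FPKM) lie below the 4 R-named ones (16597 to 19026 FPKM), and the non-diabetic sets lie the other way round.

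The difference between the groups in this effect was tested as an interaction of group and letter. It was called for 4 of 9 members, all negative, beside 3.76% of all genes called negative (525 of 901 called). The log2 interaction was -2.16 ± 0.47 (SE) for COL1A1 (adjusted p = 0.0418), -1.77 ± 0.37 for COL5A1 (adjusted p = 0.0418), -1.53 ± 0.37 for COL1A2 (adjusted p = 0.0470) and -1.40 ± 0.35 for COL3A1 (adjusted p = 0.0486). In exact permutation tests over the 210 arrangements of letters within groups, these 4 genes reached 0.00476, the smallest p they can give, beside 7.11% of all genes that reached it with a negative sign. COL24A1 and COL27A1 (exact p = 0.0143) and COL5A2 (exact p = 0.0190) were also under 0.05, beside 18.6% of all genes under 0.05 with a negative sign, while COL5A3 (exact p = 0.0714) and COL11A1 (exact p = 0.124) were not.
The limma calls rested on the set of wounds. Without diabetic replicate 3, the wound with skeletal muscle markers, 7 members were called, beside 3294 of all 13956 genes. Without any one of the other 10 wounds 0 members were called. Without both wounds that stood apart 0 were called, and the log2 interaction for COL1A1 was then -1.90 (adjusted p = 0.230). The sign was negative for all 9 members under all 17 alternatives, which were chosen after seeing the data.

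Of the marker sums, only that of fibroblast surface and identity markers did not overlap by letter in diabetic wounds. These markers summed to 368 to 552 FPKM in L-named and 584 to 714 FPKM in R-named diabetic wounds, and to 705 to 883 and 515 to 603 FPKM in the L-named and R-named non-diabetic wounds. Single fibroblast markers were higher in L-named wounds for 2 of 7 in the diabetic and 5 of 7 in the non-diabetic group. Keratinocyte markers were higher in L-named than R-named wounds for 11 of 12 genes in the diabetic group and for 0 of 12 in the non-diabetic group, and their sums overlapped in the diabetic group (3266 to 5290 and 54.5 to 6618 FPKM). These counts include the wounds that stood apart, R-named diabetic replicate 4 (54.5 FPKM) and L-named non-diabetic replicate 1 (306 FPKM). The highest sums were in R-named diabetic replicates 6 and 7 (6618 and 5862 FPKM). The counts without the wounds that stood apart were not tested. Macrophage markers summed to 715 to 1032 FPKM in L-named and 954 to 1661 FPKM in R-named diabetic wounds, and to 717 to 868 and 458 to 715 FPKM in the L-named and R-named non-diabetic wounds, and 9 of 9 had a higher mean in the diabetic group. Myofibroblast and smooth muscle markers (7 of 7 found) summed to 950.0 to 1441 FPKM in L-named and 1130 to 2015 FPKM in R-named diabetic wounds. Their non-diabetic sums were 1624 to 2076 FPKM with L names and 1762 to 1774 FPKM with R names. Although the lowest of these sums were diabetic, 5 of the 7 markers had a higher mean in the diabetic group. The sum of this list thus does not stand for its single markers. The part of cell makeup in the collagen levels was not tested beyond 1 ratio. That ratio, COL1A1 FPKM over the geometric mean of 7 fibroblast markers, had a mean of 168 in L-named and 326 in R-named diabetic wounds and of 276 and 179 in L-named and R-named non-diabetic wounds. Its log2 interaction was -1.65 (exact permutation p = 0.00476). Between the groups as a whole the ratio was 258 ± 95.6 (SD, n = 7) and 227 ± 58.4 (SD, n = 4), an exact permutation p of 0.764.

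Ratios between members were compared within each wound, which removes the scaling of the library. These are ratios of RNA and not of collagen protein. The ratio of COL3A1 to COL1A1, a type III to a type I chain, was 1.06 ± 0.272 (SD, n = 7) in diabetic and 1.14 ± 0.103 (SD, n = 4) in non-diabetic wounds. Diabetic wounds ranged from 0.776 to 1.54 with a median of 1.05, and non-diabetic replicates 1 to 4 had 1.03, 1.08, 1.25 and 1.19, inside that range. The log2 difference was -0.13 (exact permutation p = 0.518, 0.786 after adjustment over 6 ratios). None of the 6 ratios passed the test between the groups. The smallest p was for COL11A1 to COL5A1 (exact permutation p = 0.0727, adjusted 0.436), a ratio of 0.0958 ± 0.0317 (SD) over the 7 diabetic wounds and 0.144 ± 0.0328 over the 4 others.

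The ratios were then set out by letter. The 3 L-named diabetic wounds had COL3A1 to COL1A1 ratios of 1.30, 1.54 and 1.07, and the 4 R-named had 0.872, 0.776, 0.853 and 1.05. In non-diabetic wounds the L-named had 1.03 and 1.08 and the R-named 1.25 and 1.19. In either group the set with the lower mean of COL1A1 had the higher mean ratio. COL1A1 is the lower term of this ratio and differed more by letter than COL3A1 in both groups, so this order follows from their levels. The log2 interaction of each ratio is that of its upper gene minus that of its lower gene, and is not a separate result. The log2 interaction was 0.76 (exact permutation p = 0.00952, adjusted 0.0143).
The pairing of type I chains, COL1A2 to COL1A1, averaged 1.01 in L-named and 0.735 in R-named diabetic wounds and 0.891 and 1.01 in the non-diabetic wounds. The ratio of type V chains, COL5A2 to COL5A1, averaged 1.45 and 0.869 in diabetic and 0.970 and 1.28 in non-diabetic wounds. Their log2 interactions were 0.63 and 1.11, and that of COL5A3 to COL5A1 was 1.27, each with an exact permutation p of 0.00476 (adjusted 0.00952). COL5A1 to COL1A1 had the smallest interaction that passed, 0.40 (exact permutation p = 0.0190, adjusted 0.0229), and COL11A1 to COL5A1 did not pass (exact permutation p = 0.233).

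**Figure D4:**
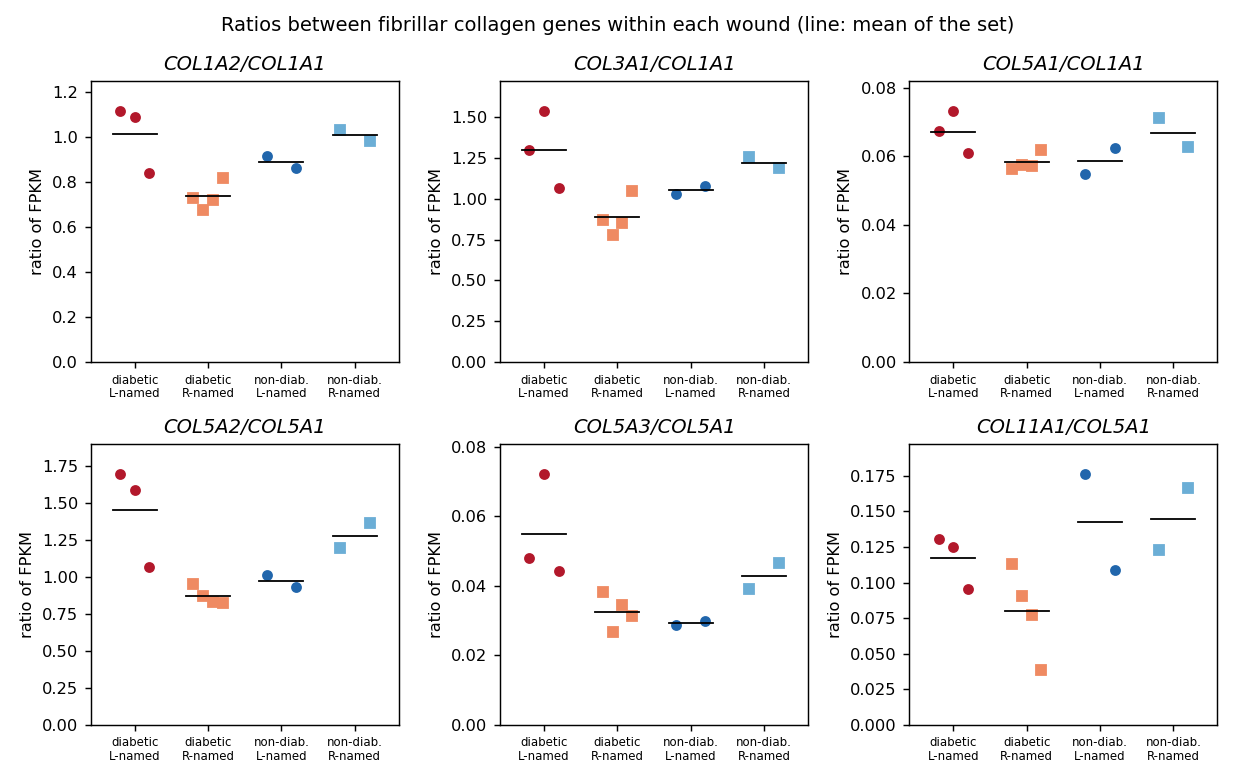
Ratio of FPKM between pairs of fibrillar collagen genes in each wound, in 6 panels with linear axes from 0; symbols and colours mark letter and group and lines are the means of each set. The COL3A1 to COL1A1 ratio averages 1.30 in L-named and 0.887 in R-named diabetic wounds, against 1.05 and 1.22 in the non-diabetic ones.

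Across the 11 wounds the members followed COL1A1 to different degrees, given here as Pearson's r of log2 values for description, since all points share libraries and scaling. COL5A1 (r = 0.994), COL1A2 (0.964) and COL3A1 (0.958) were closest, followed by COL5A2 (0.894), COL27A1 (0.838), COL5A3 (0.779) and COL24A1 (0.724). COL11A1 was least alike (0.586). Outside the family the genes most like COL1A1 were CREB3L1 (0.997), a membrane-bound transcription factor of the secretory pathway, PHLDB1 (0.995), P3H3 (0.992), a collagen prolyl 3-hydroxylase family member, HDLBP (0.990), MRC2 (0.989), an endocytic collagen receptor, AEBP1 (0.988), a collagen-binding matrix protein, RTN4RL2 (0.988) and SELENON (0.987). Those most like COL11A1 were ZDHHC2 (0.956) and LOC110260368 (0.946), an uncharacterised gene that overlaps COL11A1 on the opposite strand, so that their reads may not be separate. They were followed by LOC110255950 (0.942), RAD52 (0.939), TRANK1 (0.922), FSCN2 (0.918), ZNF239 (0.911) and HSF2 (0.911).

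The genes that fold, trim, cross-link, bind and break down fibrillar collagen were examined as 7 lists. Between diabetic and non-diabetic wounds 3 of their 88 tested genes were called, beside 3.00% of all genes. Of 19 genes for folding and hydroxylation, 2 fell. PLOD2, a lysyl hydroxylase for cross-link sites, averaged 25.2 ± 4.02 FPKM (SD) over the 7 diabetic wounds against 50.3 ± 7.53 FPKM over the 4 non-diabetic ones, a log2 difference of -0.98 (limma adjusted p = 0.00243). P4HA1, a prolyl 4-hydroxylase subunit needed for a stable helix, had 33.0 ± 3.87 and 51.3 ± 7.77 FPKM, a log2 difference of -0.62 (adjusted p = 0.0139). Both genes had no overlap between the groups, with at most 32.2 and 39.6 FPKM in diabetic and at least 42.1 and 45.3 FPKM in non-diabetic wounds. Of all genes, 5.65% had no overlap in either direction. Of 11 genes for fibril breakdown, 1 rose: TIMP3, a matrix-bound metalloproteinase inhibitor, had 36.2 ± 6.17 and 16.6 ± 2.70 FPKM, a log2 difference of 1.09 (adjusted p = 0.00213). All 3 genes were called without any one of the 11 wounds, and PLOD2 and TIMP3, but not P4HA1, without both wounds that stood apart.
None of 6 propeptide cleavage, 6 cross-linking, 20 fibril-associated, 6 receptor or 20 regulator genes was called in this fit. The nearest, all lower in diabetic wounds, were FN1 (limma adjusted p = 0.0567), TGFB3 (0.0612), POSTN (0.0698) and SMAD3 (0.0865). They and CTSK were also called with TPM scaling (8 list genes, 449 of all genes). All but SMAD3 were called with quantile normalization (7, 376 of all genes). Library weights gave 8, of which 5 were lower in diabetic wounds (822 of all genes), adding LOXL4, NFYA, P4HA3, POSTN and TGFB3. Of these, LOXL4 and P4HA3 had positive log2 differences in the main fit (0.83 and 0.56). R-named wounds only gave 24, of which only 4 were lower in diabetic wounds (1415 of all genes), and P4HA1 was not among them. L-named wounds only gave 0. The cross-linking enzyme LOX missed the threshold (59.8 ± 18.2 against 98.3 ± 27.1 FPKM, adjusted p = 0.146). SPARC, an abundant collagen-binding glycoprotein, had 13108 ± 5445 against 12885 ± 5017 FPKM (adjusted p = 0.971). The most abundant genes of the other lists were SERPINH1 (790.2 ± 236 against 747 ± 130 FPKM), BMP1 (88.2 ± 24.2 against 86.1 ± 17.1 FPKM), LOXL2 (310 ± 132 against 331 ± 104 FPKM), MMP2 (2436 ± 1136 against 2564 ± 1101 FPKM), the integrin chain ITGB1 (85.8 ± 10.5 against 112 ± 16.1 FPKM) and YBX1 (318 ± 18.6 against 280.3 ± 8.29 FPKM), none of them called. PCOLCE, an enhancer of propeptide cleavage, was listed at 0 in every wound.

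By letter in diabetic wounds, 15 of the 88 list genes were called lower in L-named wounds, the direction of COL1A1, beside 1.98% of all genes called lower, and 1 was called higher. Without diabetic replicate 3 36 were called lower, with 2399 of all genes called in either direction. Without any one of the other 10 wounds, or without both that stood apart, 0 list genes were called. A fit of the diabetic wounds alone also called 0 list genes. Of the folding genes, 5 of 19 were called lower in L-named wounds: SERPINH1, the collagen chaperone (-0.78), P3H1 (-1.06), P3H3 (-0.98), P3H4 (-0.82) and FKBP10 (-1.04). BMP1, which removes the C-terminal propeptide (-0.71), and LOXL2, a lysyl oxidase (-1.14), were called lower, as were 4 of 20 fibril-associated genes: SPARC (-1.18), COL16A1 (-0.99), COL6A2 (-1.13) and COL6A3 (-0.87). MMP14, a membrane collagenase (-0.89), MRC2 (-1.01), ITGA11, a fibroblast collagen receptor chain (-1.02), and CREB3L1 (-0.92) were also called lower, all with limma adjusted p from 0.0386 to 0.0458. SP1, a general transcription factor, was the only list gene called higher (0.64, adjusted p = 0.0453).
PLOD2 did not follow COL1A1 by letter, with a log2 difference of 0.01 in diabetic wounds (adjusted p = 0.976). The interaction of group and letter was called for 22 of the 88 genes, of which 21 were negative and SP1 was positive, beside 6.46% of all genes. Genes called here but not by letter in diabetic wounds were the hydroxylase PLOD1 (-1.18), the glycosyltransferase COLGALT1 (-0.78), the fibril-binding proteoglycans FMOD (-1.87) and PRELP (-2.93), the gelatinase MMP2 (-2.14), the protease CTSK (-1.19) and the inhibitor TIMP2 (-1.93). Without diabetic replicate 3 the interaction was called for 44 list genes, beside 3294 of all genes. Without any one of the other 10 wounds, or without both that stood apart, it was called for 0 list genes. The plot of letter differences by group sets these genes beside the members.

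**Figure D5:**
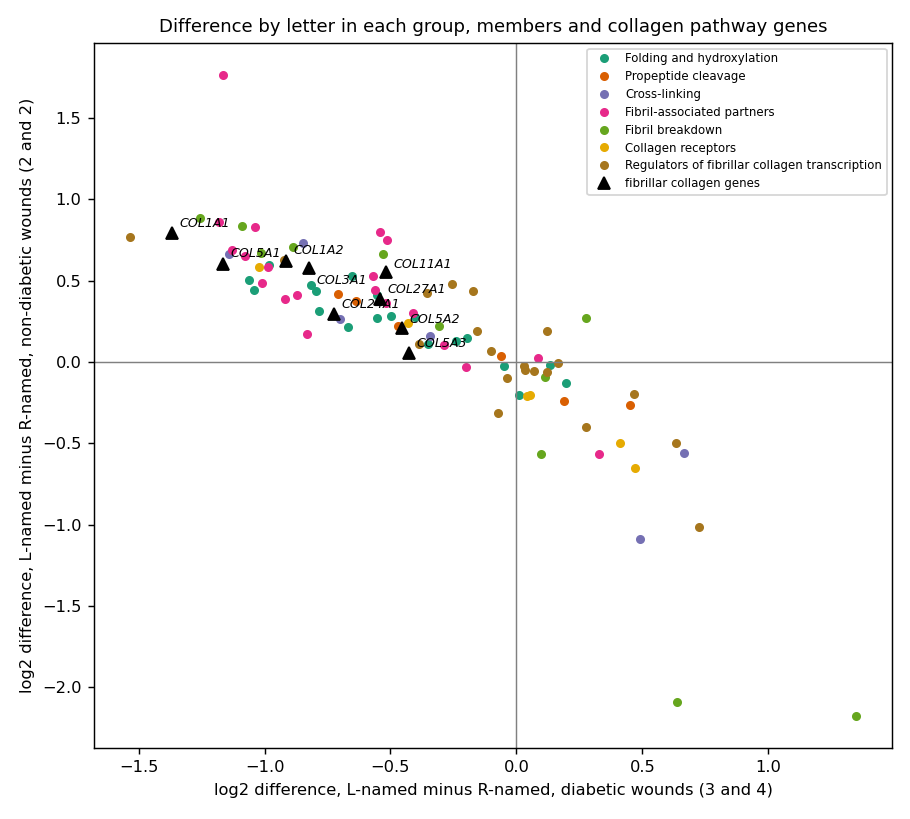
Log2 difference, L-named minus R-named, in diabetic wounds (horizontal axis, 3 and 4 wounds) against non-diabetic wounds (vertical axis, 2 and 2 wounds) for the 9 fibrillar collagen genes (black triangles) and the tested genes of the 7 lists (coloured dots). All 9 triangles lie at the upper left, lower in L-named diabetic and higher in L-named non-diabetic wounds, with COL1A1 at -1.37 and 0.79.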

How the data were processed

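Total RNA was taken from 7 wounds of a diabetic and 4 wounds of a non-diabetic minipig on day 10, with 1 poly-A selected, strand-keeping library per wound. Per the submitters' processing notes the reads were handled with fastp, HISAT2 2.2.1, StringTie 2.2.3 and featureCounts 2.0.6 on Sscrofa11.1. The deposited values are FPKM made by the authors, and the formula is not given in the sources used here. FPKM times gene length gave whole reads within 0.05, with library scaling that followed median-of-ratios size factors. The deposited columns held no sample outside these 11 wounds.

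The 13956 genes that reached 0.5 FPKM in 4 or more libraries were tested on log2(FPKM + 0.5) with limma 3.58.1 (lmFit, eBayes with trend; R 4.3.3) and Benjamini-Hochberg adjustment. The fits used group, group and letter, their interaction, and 4 group-by-letter means. A fold on this scale understates the change of low genes. Single values and log2 ratios were compared with two-sided exact permutation tests (numpy 2.4.6, Python 3.11.15). They ran over 330 splits into groups, 210 arrangements of letters within groups, or 35, 6, 15 and 10 splits within 1 group or letter. For the splits within 1 group or letter the smallest p is 0.0286, 0.333, 0.0667 and 0.1, in that order. Wilson intervals came from SciPy 1.17.1. Depth limits only the lowest member, COL24A1, with 569 to 1466 reads per wound. Promoter windows were read from the NCBI genome of the same build, in which 30335 of 30376 genes had an identifier, and 1 window is not reported here.

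The members and lists were chosen with earlier results of these data known. Genes named outside the members were those of the lists that were called or most abundant and the 8 most like COL1A1 or COL11A1. LOX, PCOLCE and the list genes near the threshold or called only under alternatives were chosen after seeing their values. The alternatives were other pseudocounts, filters, scalings, library weights and spread estimates, fewer wounds, 1 letter and a replicate block, and those for the interaction, for letters within diabetic wounds and for the list genes were chosen after seeing the data. The limma step was tested on simulated data.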

Additional observations from a re-analysis of the deposited data

Results flagged for a closer look

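Of 32 sets of 4 to 10 wounds examined for a wound far from the others, 3 had one, and chance alone gives about 1 in 20. Non-diabetic replicate 1 was high in COL5A2 (1111 FPKM) and in COL11A1 (194 FPKM), and it is one of the wounds with low keratinocyte markers. Non-diabetic replicate 4 was low in COL24A1 (3.07 FPKM).

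The interaction of group and letter had an exact permutation p under 0.05 for 7 of 9 genes, all negative, beside 18.6% of all genes under 0.05 with a negative sign. Letters were shuffled within each group, so this p is set against no difference by letter in either group. The log2 interaction was -2.16 for COL1A1, -1.53 for COL1A2, -1.40 for COL3A1 and -1.77 for COL5A1 (exact p = 0.00476 each), -0.66 for COL5A2 (exact p = 0.0190), and -1.02 for COL24A1 and -0.93 for COL27A1 (exact p = 0.0143 each). Exact p was also under 0.05 for the ratios COL1A2 to COL1A1 (0.63), COL3A1 to COL1A1 (0.76), COL5A1 to COL1A1 (0.40), COL5A2 to COL5A1 (1.11) and COL5A3 to COL5A1 (1.27), and for COL1A1 over fibroblast markers (-1.65). The interactions of ratios between members follow from those of their genes. There were 2 L-named and 2 R-named non-diabetic wounds, and the limma calls changed when single wounds were left out. The part of position on the animal was not tested, nor that of cell makeup beyond the ratio to fibroblast markers.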

How the results depend on the processing

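Between the groups, 0 members were called under every alternative but R-named wounds only, which gave 2. The count of all genes called went from 419 to 212 without both wounds that stood apart, 822 with library weights, 9 in L-named and 1415 in R-named wounds only, and 209 to 482 without 1 wound. Log2 differences changed sign with library weights for COL1A1 (0.21), COL5A1 (0.14) and COL27A1 (0.044), in R-named wounds for COL1A1 (0.85), COL1A2 (0.39), COL3A1 (0.38), COL5A1 (0.65), COL5A2 (0.10) and COL27A1 (0.31), and for COL5A3 with quantile normalization (-0.067), TPM (-0.040) and in L-named wounds (-0.24). Without 1 wound they ranged from -0.27 to 0.087 for COL1A1, -0.28 to 0.031 for COL5A1 and -0.028 to 0.14 for COL5A3. COL11A1 and COL24A1 stayed negative under all 24 alternatives. The cause of these changes was not tested. The voom fit on recovered reads was not run, since the values used here were FPKM.

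For ratios the sign changed in L-named wounds for COL1A2 to COL1A1 (0.17), COL3A1 to COL1A1 (0.29), COL5A1 to COL1A1 (0.20), COL5A2 to COL5A1 (0.55) and COL1A1 over fibroblast markers (-0.79), and in R-named wounds for COL5A3 to COL5A1 (-0.40). Without 1 wound COL5A1 to COL1A1 ranged from -0.079 to 0.047, COL5A2 to COL5A1 from -0.16 to 0.045 and COL1A1 over fibroblast markers from -0.014 to 0.28.

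By letter with group as a term, diabetic wounds only gave 7 genes and 0 members. Non-diabetic wounds only turned the sign of all members (0.79, 0.62, 0.58, 0.60, 0.21, 0.058, 0.55, 0.30 and 0.39 in the order COL1A1, COL1A2, COL3A1, COL5A1, COL5A2, COL5A3, COL11A1, COL24A1 and COL27A1). COL11A1 ranged from -0.36 to 0.029 without 1 wound. For the interaction, all genes called went from 901 to 1 without both wounds that stood apart, 12 with quantile normalization, 3374 with library weights and 0 to 3294 without 1 wound, and members called went from 4 to 0, 0, 7 and 0 to 7, and to 2 with TPM. For letters within diabetic wounds, all genes called went from 526 to 0, 32, 2171 and 0 to 2399 under the same settings, and members called from 2 to 0, 0, 7 and 0 to 8. Quantile normalization gives the highest gene of each wound the same value, which by construction limits COL3A1 and COL1A1.

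The replicate numbers came from different animals, and deviations of same-numbered wounds correlated at -0.27, 0.22, 0.07 and -0.48, so the wounds share only a number and not a pairing. With the replicate block 16 genes and 0 members were called between the groups, COL5A3 had -0.059, and the ratios COL3A1 to COL1A1, COL5A1 to COL1A1, COL5A2 to COL5A1 and COL1A1 over fibroblast markers had 0.042, 0.037, 0.21 and -0.25. For the letter the block rests on replicate 3, the only number with both letters, and gave 1.13 for COL1A1, 0.77 for COL1A2, 0.76 for COL3A1, 0.78 for COL5A1, 0.29 for COL5A2, 0.37 for COL5A3, 0.67 for COL11A1 and 0.032 for COL27A1.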
